A study of Mus musculus with 57 samples.

Results

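Ms4a4c, Ms4a6b, Ms4a6c and Ms4a6d are mouse genes of 1 cluster in the membrane-spanning 4-domains subfamily A. They were picked by symbol in the deposited count tables of a study on microglia that lack P2RY12, a receptor for extracellular nucleotides. The 4 genes were found among 50565 genes of the first table and 53278 of the second, and all 4 passed the filter on low counts in both, which kept 31709 and 15857 genes. RNA had been sequenced from CD11b-positive brain cells, called microglia in the labels, of wild-type mice (WT) and of their littermates deficient in P2RY12 (KO). The first table, called the sex experiment here, holds adult animals: males, of which 4 were WT and 5 KO, and females, again 4 WT and 5 KO. Their labels list no treatment of single animals. In the second, called the LPS experiment, the labels give 8 WT ns, 9 WT LPS, 8 KO ns and 8 KO LPS libraries. Here LPS means an intraperitoneal dose (1 mg/kg) of bacterial lipopolysaccharide. What ns stands for is not explained in the labels, which also give no sex for the LPS experiment, no age beyond adult, no time after injection and no account of how P2RY12 was removed.

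MS4A proteins are small tetraspan membrane proteins, most of them made by cells of the immune system. The best known are Ms4a1, which is the B-cell antigen CD20, and Ms4a2, the beta chain of the high-affinity IgE receptor. In humans the gene cluster holding MS4A4A and MS4A6A carries variants linked to the risk of Alzheimer's disease and to the level of soluble TREM2, a microglial receptor. Mice have several genes in place of the human MS4A6A, among them Ms4a6b, Ms4a6c and Ms4a6d. In macrophages Ms4a6d has been described with the receptor VSIG4 as a brake on the NLRP3 inflammasome, which matures interleukin 1 beta. Apart from that, it has been described with MHC class II molecules.

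The genes lie in one stretch of the Ms4a cluster on chromosome 19 (GRCm39), with Ms4a4b between Ms4a4c and Ms4a6c and Ms4a4d between Ms4a6b and Ms4a6d. Ms4a4c spans 11382081 to 11404610, Ms4a6c 11446718 to 11464433 and Ms4a6b 11495923 to 11507767, all on the plus strand. Ms4a6d spans 11563970 to 11582150 on the minus strand. The sex experiment counted whole gene spans, introns included, and 2 of the spans hold another gene, Gm5692 in Ms4a4c (at most 75 counts in an animal) and BE692007 in Ms4a6c (at most 6657 counts). Reads of those overlapping genes cannot be told apart there. In GENCODE M21 (GRCm38), coding sequences of Ms4a6b and Ms4a6c were identical at 85.4% of 642 aligned bases, those of Ms4a6b and Ms4a6d at 81.2% of 730, and those of Ms4a6c and Ms4a6d at 79% of 638. Ms4a4c was closer to Ms4a4b (91.7% of 678 bases) than to Ms4a6b (60.1% of 641). Stretches of 50 bases found in both transcripts numbered 134 of 1747 between Ms4a4c and Ms4a4b, 109 of 2631 between Ms4a6b and Ms4a6c and 40 of 2631 between Ms4a6b and Ms4a6d. How the authors counted reads that match several genes is not given in the sources used here, so small shares of reads may have been split or dropped between these genes.

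The 4 genes rose together after LPS in KO cells, so the 250 bases before the start of the 3 that the RefSeq promoter table lists are shown. The table is on GRCm38.p6, whose coordinates differ from the GRCm39 ones above. The capitals mark the core of the interferon-stimulated response element (ISRE), the sequence bound by interferon-activated factors, searched as GAAANNGAA on both strands.
Ms4a4c (chr19:11407411-11407660, plus strand): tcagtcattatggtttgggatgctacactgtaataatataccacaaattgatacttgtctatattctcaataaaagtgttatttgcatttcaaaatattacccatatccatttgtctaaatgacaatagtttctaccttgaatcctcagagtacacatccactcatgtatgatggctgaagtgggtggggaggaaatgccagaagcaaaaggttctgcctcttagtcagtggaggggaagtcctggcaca
Ms4a6b (chr19:11518309-11518558, plus strand): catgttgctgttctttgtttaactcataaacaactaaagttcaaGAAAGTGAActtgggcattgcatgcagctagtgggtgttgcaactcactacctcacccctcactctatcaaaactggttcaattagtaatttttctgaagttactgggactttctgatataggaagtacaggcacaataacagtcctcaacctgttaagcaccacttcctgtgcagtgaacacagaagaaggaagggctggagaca
Ms4a6c (chr19:11469118-11469367, plus strand): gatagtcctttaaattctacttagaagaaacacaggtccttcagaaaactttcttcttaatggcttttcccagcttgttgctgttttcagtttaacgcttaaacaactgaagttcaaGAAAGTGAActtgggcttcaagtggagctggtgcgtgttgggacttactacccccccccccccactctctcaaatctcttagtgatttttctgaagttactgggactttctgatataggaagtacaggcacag
The ISRE core was found in 2 of 3, in Ms4a6b at positions -206 to -198 and in Ms4a6c at -133 to -125 from the start. Of all 32851 promoter windows listed, 8.56% held it. Ms4a4c held none in this window. Of the 3 neighbours sought, Ms4a4b held none. No match was recorded for Ms4a4a, but whether a promoter window of Ms4a4a is listed at all was not checked. Ms4a7, which fell after LPS in KO, held the core at -148 to -140 and, on the other strand, at -71 to -63. Ms4a6b and Ms4a6c also shared an unbroken run of 48 bases, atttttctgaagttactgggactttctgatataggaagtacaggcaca, while the longest run that either shared with Ms4a4c was 8 bases. The interferon-gamma element (TTCNNNGAA), the myeloid PU.1 motif (GAGGAAGT) and the AP-1 motif (TGANTCA) were each found in 0 of 3 windows, which run from 250 bases before to 50 after the start, against 8.3%, 3.2% and 7.81% of all. The AP-1 motif was found in Ms4a7 (-81 to -75) and in Ms4a4b (23 to 29). A match describes letters only.

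Libraries of the sex experiment held 58.5 to 318.5 M counts (M stands for mega) and those of the LPS experiment 15.9 to 168.4 M. Levels are in CPM, which are counts for each M of a library's total, scaled by TMM. WT LPS 8 and WT LPS 9 differed far less than any other pair (chi-square per degree of freedom 1.86, against 8.32 or more) and were counted as 1 sample, so 32 samples were compared. Nothing in the labels says which libraries came from separate animals in the LPS experiment, so p-values measure the spread between these samples. P2ry12, the targeted gene, was at 3007 CPM or more in every WT animal of the sex experiment and at 526.4 or less in every KO animal. In the LPS experiment P2ry12 was at 3516 to 5406 CPM in 6 WT ns libraries and at 400.3 to 1063 in 6 WT LPS samples. The 4 WT libraries that carry the library number 2 went the other way, with P2ry12 at 481 CPM in the library labelled WT ns 1, 927.4 in that labelled WT ns 5, 4461 in that labelled WT LPS 1 and 12150 in that labelled WT LPS 6. Saa3, an acute-phase gene, had 1781 and 2491 CPM in this pair labelled ns, against 1.52 to 64.4 in the other WT ns libraries, and 1.59 and 3.21 in the pair labelled LPS, against 1418 to 9720. These 4 libraries are shown apart, the groups are kept as labelled in the test, and every result that rests on WT is also given without the 8 libraries of number 2 of all groups. Mitochondrial counts were 5.62% to 8.55% in 4 libraries, KO ns 6, KO LPS 5, WT LPS 6 and WT LPS 7, against 0.787% to 3.03% in the other samples. Of these, KO LPS 5 and WT LPS 6 also carry the number 2. Microglial markers were present in every library, and B-cell, T-cell and dendritic-cell markers had 0 counts in some libraries of the LPS experiment (Pax5, Cd3e and Xcr1 among them). In such bulk samples fewer cells of a type and less RNA per cell cannot be told apart.

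All 4 genes rose in KO cells after LPS, from 3.85-fold for Ms4a6b to 12.3-fold for Ms4a6c in mean level. In WT cells all 4 rose once the libraries of number 2 were set apart, and none passed the test as labelled. The genotype difference did not pass the test for any of the 4 genes, at ns, at LPS, or in the sex experiment.

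**Figure D1:**
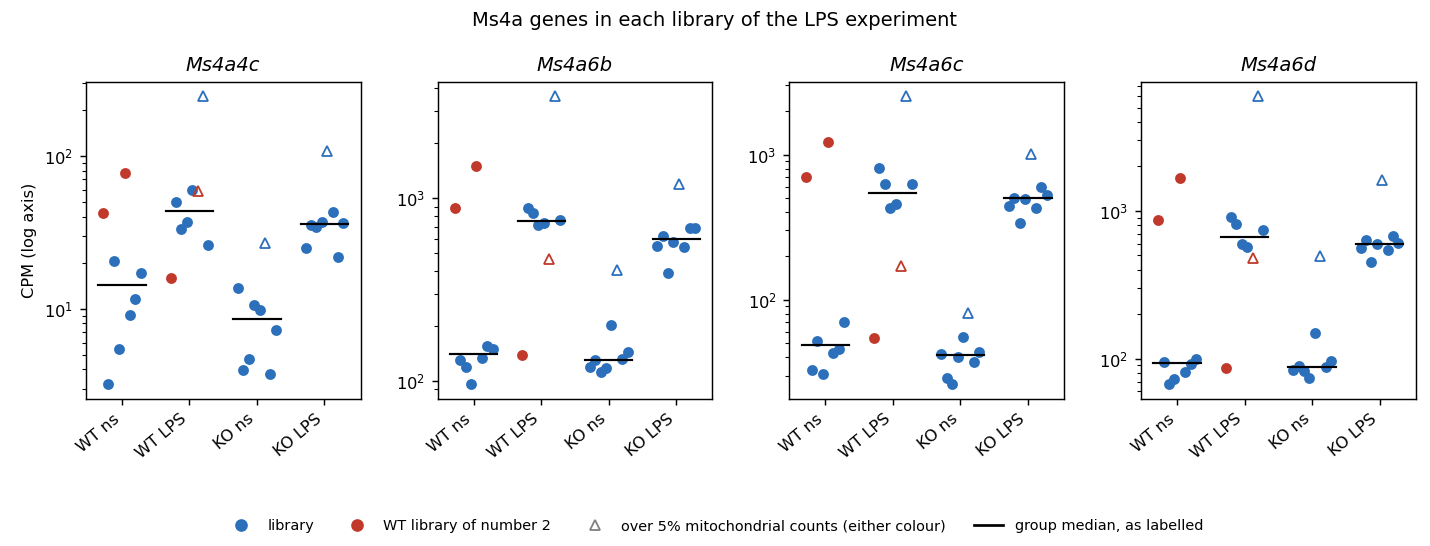
CPM of the 4 genes (log axis) in each sample of the LPS experiment, by group as labelled, with the group median as a black line. Red points are WT libraries of number 2, triangles the libraries over 5% mitochondrial counts. In KO, Ms4a6c runs from 26.2 to 80.5 CPM at ns and from 338.3 to 1014 at LPS, and in WT ns the red points lie among the LPS levels.

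Ms4a6c showed the widest separation in KO. It was at 26.2 CPM in the lowest, 41.4 in the median and 80.5 in the highest of 8 KO ns libraries, and at 338.3, 498.8 and 1014 CPM in KO LPS. The groups did not overlap, and the means were 44.2 ± 17.2 and 543.6 ± 204.9 CPM (SD, n = 8 each). The share of all genes whose groups do not overlap is not given, here or below. Lack of overlap thus describes the genes named and sets them apart from no others. The log2 fold change was 3.63 ± 0.72 (SE, edgeR's quasi-likelihood test, Benjamini-Hochberg adjusted p 0.000947).

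Ms4a6d, the gene tied to the NLRP3 brake, was at 73.5, 88.4 and 495.4 CPM (lowest, median, highest) in KO ns and at 449.2, 598 and 1626 in KO LPS. The groups overlapped through 1 library, KO ns 6, at 495.4 CPM, and the next highest KO ns library was at 149.4. Its log2 fold change was 2.43 ± 0.68 (edgeR adjusted p 0.011). Ms4a6b was at 111.9, 131 and 404.5 CPM in KO ns and at 389.2, 602.2 and 1195 in KO LPS. Again only KO ns 6 reached into the LPS range, above the lowest KO LPS library alone. Its log2 fold change was 1.99 ± 0.53 (edgeR adjusted p 0.00733).

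Ms4a4c, the member nearest to the T-cell gene Ms4a4b in sequence, had the lowest counts of the 4. It was at 3.76, 8.49 and 27 CPM in KO ns and at 21.8, 35.6 and 106.7 in KO LPS, with at least 86 counts in each library. Here KO ns 6 lay above 2 of the KO LPS libraries, and no other KO ns library reached their range. The log2 fold change was 2.06 ± 0.54 (edgeR adjusted p 0.00691).

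Thus 4 of 4 genes were called higher in KO, where 10.3% of all genes tested were. The median log2 fold change of the 4 was 2.24, and that of all genes -0.02. The 4 calls held with each of the 32 samples left out in turn, with log2 fold changes of 1.84 to 2.37 for Ms4a4c, 1.9 to 2.25 for Ms4a6b, 3.53 to 3.79 for Ms4a6c and 2.29 to 2.88 for Ms4a6d. Without the libraries of number 2, 4 of 4 were again called (13.6% of all genes higher), with 1.97 ± 0.56 for Ms4a4c, 1.82 ± 0.35 for Ms4a6b, 3.54 ± 0.37 for Ms4a6c and 2.1 ± 0.52 for Ms4a6d. The library names fall into 2 sets, each with all groups. In set 1 alone the log2 fold changes were 2.02, 2.18, 3.71 and 2.79 in the order Ms4a4c, Ms4a6b, Ms4a6c, Ms4a6d, and 4 were called. In set 2 alone they were 2.27, 1.94, 3.68 and 2.21, and none was called, with edgeR adjusted p of 0.257, 0.333, 0.178 and 0.406.

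The KO libraries with over 5% mitochondrial counts, KO ns 6 and KO LPS 5, were the highest of their groups for all 4 genes. Without the libraries of number 2 and those of high mitochondrial share, KO ns and KO LPS did not overlap for any of the 4 genes. Ms4a6d was then at 73.5 to 96 CPM in 5 KO ns and 449.2 to 674.4 CPM in 6 KO LPS libraries. The log2 fold changes were 2.52 ± 0.41 for Ms4a4c, 2.22 ± 0.13 for Ms4a6b, 3.79 ± 0.22 for Ms4a6c and 2.79 ± 0.14 for Ms4a6d. For Ms4a6b and Ms4a6d the SE was thus 0.13 and 0.14, against 0.53 and 0.68 with all libraries. It was already smaller with number 2 alone left out, as given above. The set without high mitochondrial share was chosen after seeing the data. It leaves out KO ns 6, the only KO ns library that had reached the KO LPS range, so the lack of overlap was fixed by that choice. A smaller SE is in part built in too.

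Monocytes and neutrophils, which carry CD11b too, could be present in these preparations. The summed level of 10 monocyte markers was 177.4 to 1445 CPM in KO ns and 581.8 to 1110 CPM in KO LPS, and that of 10 neutrophil markers 339.5 to 10510 and 1672 to 5331 CPM. Of these markers 1 of 10 in each list was called higher in KO, 1 monocyte marker was called lower, and no marker of either list was at 0 in any library. The summed microglial markers were 36890 to 55180 CPM in KO ns and 24160 to 29130 in KO LPS, and 5 of 12 were called lower. Markers of border-associated macrophages had 4 of 9 called lower, B cells 3 of 5 tested and T and NK cells 1 of 6. For dendritic cells, 1 of 7 was called higher and 3 lower. Across all genes 10.3% were called higher and 12% lower, so 1 of 10 markers called higher is near the share of all genes. The part of these cells in the rise of the Ms4a genes was not tested.

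**Figure D2:**
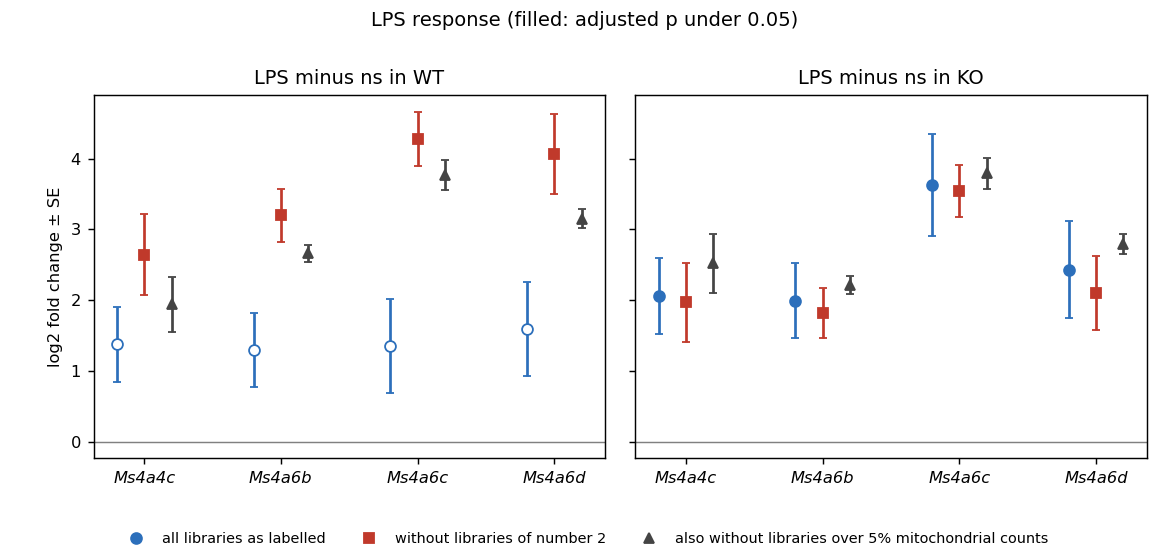
Log2 fold change of LPS minus ns (± SE) of the 4 genes in WT and KO, for all libraries as labelled, without libraries of number 2, and also without libraries over 5% mitochondrial counts; filled symbols have an adjusted p under 0.05. In KO all 12 estimates are filled, and in WT the 4 as labelled are open (1.3 to 1.59) and the others filled.

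In WT the picture depended on the libraries of number 2. Outside them, Ms4a6c was at 30.9, 44.3 and 69.8 CPM (lowest, median, highest of 6) in WT ns and at 427.8, 629.6 and 2522 in WT LPS. Among the libraries of number 2, Ms4a6c was at 701.5 CPM in that labelled WT ns 1 and 1220 in that labelled WT ns 5, both within the LPS range. It was at 54.8 CPM in that labelled WT LPS 1, within the ns range, and at 169.6 in that labelled WT LPS 6, between the groups. Ms4a6d was at 67.1, 86.4 and 99.9 CPM in the other WT ns and at 569, 777.2 and 5975 in the other WT LPS samples. In the libraries of number 2 Ms4a6d was at 865.4 and 1665 CPM in the pair labelled WT ns and at 86.5 and 482.7 in the pair labelled WT LPS.

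Ms4a6b showed the same split. It was at 96.1, 131.4 and 156.5 CPM in the other WT ns and at 716.4, 796 and 3623 in the other WT LPS samples. In the pair of number 2 labelled WT ns it had 885.7 and 1506 CPM, and in the pair labelled WT LPS 139.1 and 467. Ms4a4c was at 3.21, 10.4 and 20.4 CPM in the other WT ns and at 26, 43.4 and 244.7 in the other WT LPS samples, against 42.3 and 77.2 in the pair labelled WT ns and 15.8 and 58.4 in the pair labelled WT LPS. For each gene, both libraries labelled ns of number 2 were thus above all the other WT ns libraries.

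As labelled, 0 of the 4 genes and 0% of all 15857 genes were called between WT LPS and WT ns by edgeR. The log2 fold changes were 1.38 ± 0.53 for Ms4a4c, 1.3 ± 0.52 for Ms4a6b, 1.35 ± 0.66 for Ms4a6c and 1.59 ± 0.67 for Ms4a6d (edgeR adjusted p 0.148 to 0.222). At an unadjusted p under 0.05 there were 3 of the 4 (Ms4a6c at 0.051) and 3605 genes in all, and DESeq2 called 0 of the 4. Leaving out the library labelled WT ns 1 gave 3 calls of 4 (all but Ms4a6c), and leaving out that labelled WT ns 5 gave 4. Without WT LPS 7, which held the highest level of each gene, the log2 fold changes were 0.79 for Ms4a6c and for Ms4a6d, 0.78 for Ms4a6b and 0.83 for Ms4a4c.

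Without the libraries of number 2, 4 of 4 genes were called higher in WT, against 16.9% of all genes. The groups of 6 did not overlap for any of them. The log2 fold changes were 2.64 ± 0.57 for Ms4a4c (edgeR adjusted p 0.00101), 3.2 ± 0.37 for Ms4a6b (8.95e-07), 4.28 ± 0.38 for Ms4a6c (2.52e-08) and 4.06 ± 0.57 for Ms4a6d (8.96e-06). Without WT LPS 7 and the other libraries of high mitochondrial share as well, they were 1.94 ± 0.39, 2.66 ± 0.12, 3.77 ± 0.21 and 3.15 ± 0.14 in that order, and the 4 calls held. In WT LPS 7 the neutrophil markers summed to 15890 CPM and the monocyte markers to 2986, both the highest of the WT LPS samples. WT ns 3 and WT ns 8 had 19200 and 17980 CPM of neutrophil markers, with Ms4a6b at 120.1 and 149 CPM, inside the range of the other WT ns libraries. Ms4a4c was at 20.4 and 17.1 CPM in that pair, the highest of the 6 WT ns libraries outside number 2. The part of these cells was not tested.

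Per kb of exon (GENCODE M21 exon bases of all transcripts of a gene together), Ms4a6d was the most abundant of the 4 and Ms4a4c the least. The order depends on these lengths, 4485 bases for Ms4a6b, 2050 for Ms4a6c and 1735 for Ms4a6d. It also takes the LPS experiment to have counted exons alone. Whether whole gene spans were counted there, as in the sex experiment, is not established here. In mean CPM, Ms4a6b was above Ms4a6c in KO LPS (656.2 against 543.6) and above Ms4a6d in KO ns (170.3 against 144.7). The median in KO ns was 50.9 CPM per kb for Ms4a6d, 29.2 for Ms4a6b, 20.2 for Ms4a6c and 4.85 for Ms4a4c. In KO LPS it was 344.7 for Ms4a6d, 243.3 for Ms4a6c, 134.3 for Ms4a6b and 20.3 for Ms4a4c. On this scale alone Ms4a6c stood above Ms4a6b at LPS and below it at ns. Ms4a6b (24.95 to 90.2) and Ms4a6c (12.8 to 39.3) overlapped in KO ns, and so did Ms4a6d (42.4 to 285.5) and Ms4a6b. In KO LPS Ms4a6d (258.9 to 937.2) and Ms4a6c (165 to 494.6) overlapped, as did Ms4a6c and Ms4a6b (86.8 to 266.4), while Ms4a4c (12.4 to 60.9) lay below all 3. In the other 6 WT ns libraries the medians were 49.8, 29.3, 21.6 and 5.94 CPM per kb for Ms4a6d, Ms4a6b, Ms4a6c and Ms4a4c.

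**Figure D3:**
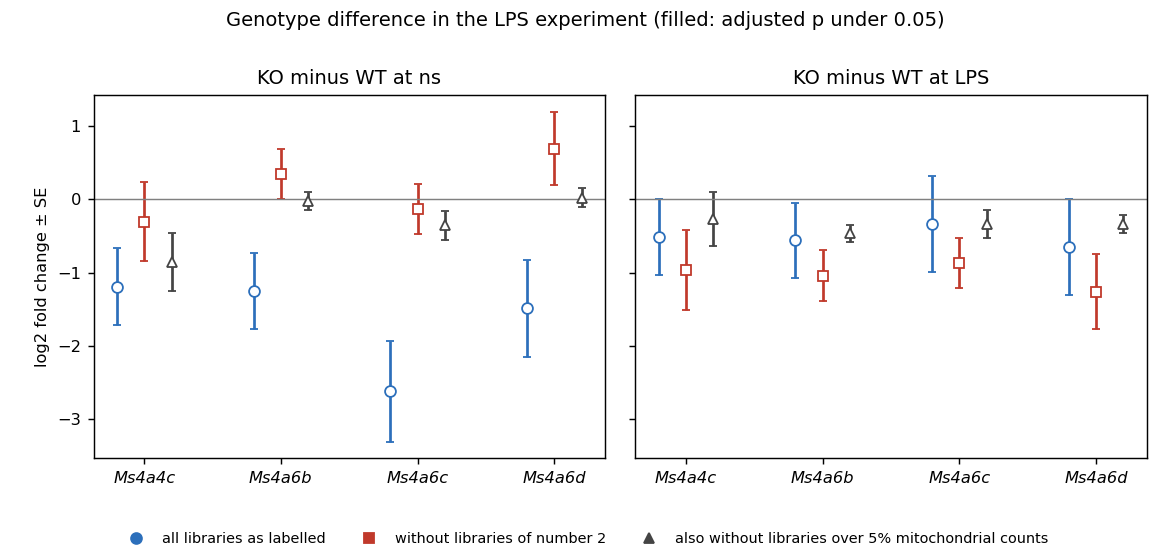
Log2 fold change of KO minus WT (± SE) at ns and at LPS in the LPS experiment, for the same 3 sets of libraries; every symbol is open, since no adjusted p is under 0.05. At ns, Ms4a6c moves from -2.62 as labelled to -0.13 without libraries of number 2.

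The loss of P2RY12 was compared at ns and at LPS to ask whether the response depends on the receptor. At ns, as labelled, the log2 fold changes of KO against WT were -1.19 ± 0.53 for Ms4a4c, -1.25 ± 0.52 for Ms4a6b, -2.62 ± 0.69 for Ms4a6c and -1.49 ± 0.66 for Ms4a6d, and edgeR called 0 of 4 (adjusted p 0.16 to 0.543) and 0.114% of all genes. The unadjusted p was under 0.05 for 4 of 4, and DESeq2 called 1, Ms4a6c. Of all genes, 1360 had an unadjusted p under 0.05. Within library sets Ms4a6c was at -2.58 in set 1 and -2.76 in set 2, not called in either. Without the libraries of number 2, the differences were -0.3 ± 0.54 for Ms4a4c, 0.34 ± 0.34 for Ms4a6b, -0.13 ± 0.34 for Ms4a6c and 0.7 ± 0.51 for Ms4a6d. With these libraries out 0 of 4 genes (0 at an unadjusted p under 0.05) and 0.0822% of all genes were called.

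At LPS, as labelled, KO minus WT was -0.51 ± 0.52 for Ms4a4c, -0.56 ± 0.51 for Ms4a6b, -0.33 ± 0.65 for Ms4a6c and -0.65 ± 0.66 for Ms4a6d. EdgeR called 0 of 4 (0 at an unadjusted p under 0.05, 0 by DESeq2) and 0.126% of all genes. Without the libraries of number 2 the differences were -0.97 ± 0.55, -1.04 ± 0.35, -0.87 ± 0.34 and -1.26 ± 0.51 in that order, with 0 of 4 called (3 at an unadjusted p under 0.05, as were 1051 of all 15816 genes) against 0.0885% of all genes. Ms4a6b was then at 389.2 to 687.6 CPM in 6 KO LPS and 716.4 to 3623 CPM in 6 WT LPS samples, which did not overlap, and the other 3 genes overlapped. Leaving WT LPS 7 out of the full set moved the value to 0.05 for Ms4a4c, -0.05 for Ms4a6b, 0.2 for Ms4a6c and 0.14 for Ms4a6d. That set still held the pair of number 2 labelled WT LPS, so these values do not bear on the differences without number 2. With the libraries of number 2 and of high mitochondrial share both out, WT LPS 7 among them, Ms4a6b was at -0.47 ± 0.12 (unadjusted p 0.000797, edgeR adjusted p 0.123), with 716.4 to 886 CPM in 5 WT LPS samples. The KO mean was then below the WT mean for all 4 genes. Ratios of means were 0.837 for Ms4a4c, 0.744 for Ms4a6b, 0.818 for Ms4a6c and 0.802 for Ms4a6d, with 0 of 4 called and 2 at an unadjusted p under 0.05.

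The LPS response itself was not shown to differ by genotype. The interaction (response in KO minus response in WT) was 0.68 ± 0.74 for Ms4a4c, 0.69 ± 0.72 for Ms4a6b, 2.29 ± 0.93 for Ms4a6c and 0.84 ± 0.93 for Ms4a6d as labelled. EdgeR called 0 of 4 (1 at an unadjusted p under 0.05, 0 by DESeq2) and 0% of all genes (1698 at an unadjusted p under 0.05). Without the libraries of number 2 every sign turned, to -0.67 ± 0.77, -1.38 ± 0.49, -0.73 ± 0.48 and -1.96 ± 0.73, with adjusted p of 0.457 to 0.645 by edgeR and 2 of 4 at an unadjusted p under 0.05. Again 0 of 4 genes and 0% of all genes were called (1574 at an unadjusted p under 0.05). With the libraries of high mitochondrial share out too, the values were 0.58 ± 0.55, -0.44 ± 0.17, 0.02 ± 0.28 and -0.36 ± 0.18.

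**Figure D4:**
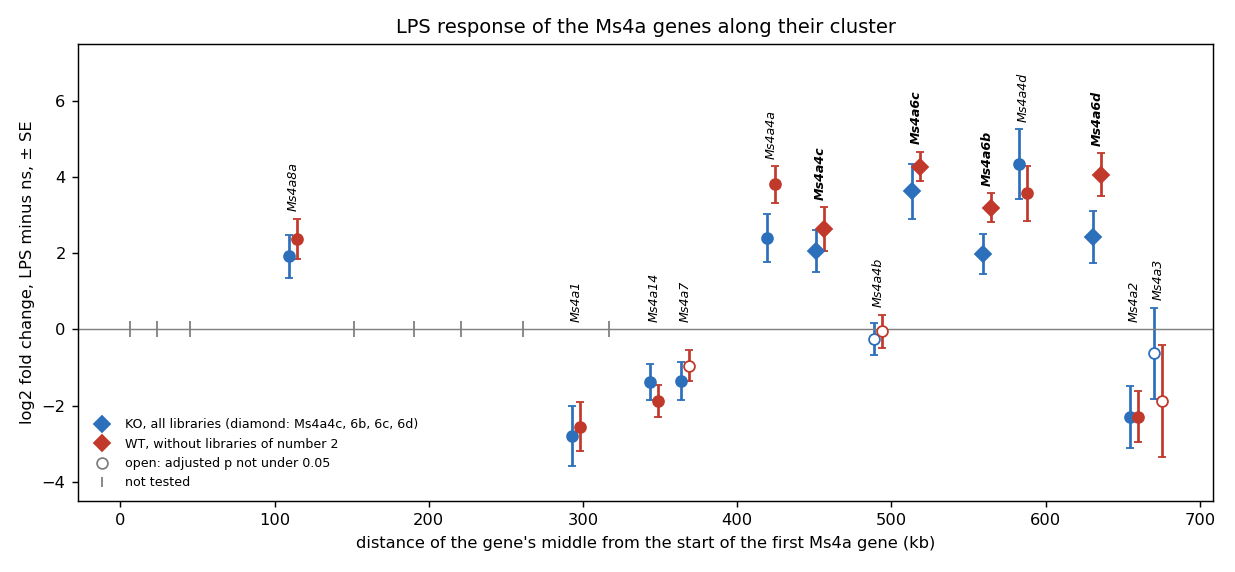
Log2 fold change of LPS minus ns (± SE) of each Ms4a gene of the cluster, in KO with all libraries and in WT without libraries of number 2, against the distance of the gene's middle from the start of the first gene (kb); diamonds are Ms4a4c, Ms4a6b, Ms4a6c and Ms4a6d, open symbols have an adjusted p not under 0.05, and ticks mark genes not tested. The 4 genes, Ms4a4a and Ms4a4d lie between 413.2 and 642.5 kb and are all above 0, with Ms4a4b among them at -0.25 in KO.

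A list of 22 other members of the family was used, of which 17 were in the table of the LPS experiment and 11 passed the filter. In KO, 3 of 11 were called higher and 4 lower, where 10.3% of all genes were higher and 12% lower. Next to Ms4a4c lies Ms4a4a, a macrophage gene and the counterpart of human MS4A4A. It was at 7.26, 12.9 and 48.1 CPM in KO ns and at 34, 76.7 and 153.8 in KO LPS, with a log2 fold change of 2.4 ± 0.64 (edgeR adjusted p 0.00733). Ms4a8a, described in alternatively activated macrophages, stood at 1.92 ± 0.56 (adjusted p 0.0141) by the same test. Ms4a4d was nearly silent, with 0 to 3 counts in KO ns and 7 to 29 in KO LPS libraries. Its fitted log2 fold change of 4.35 ± 0.91 (edgeR adjusted p 0.00131) depends on the prior count.

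Among the genes that fell was Ms4a7, a marker of border-associated macrophages. It was at 11.2, 18.8 and 79.9 CPM in KO ns and at 4.25, 7.1 and 26.4 in KO LPS, with a log2 fold change of -1.36 ± 0.5, which only just passed (edgeR adjusted p 0.04995). Ms4a14 had -1.38 ± 0.47, Ms4a1 (CD20) -2.79 ± 0.79 and Ms4a2 (the IgE receptor chain) -2.29 ± 0.81, with edgeR adjusted p of 0.0328, 0.011 and 0.041. Ms4a1 had at most 47 counts in a KO library and Ms4a2 at most 106. Ms4a4b, which is 91.7% identical to Ms4a4c in coding sequence, was at 4.03 CPM in the median KO ns and 4.36 in the median KO LPS library, with -0.25 ± 0.41. Ms4a3, a gene of granulocyte and monocyte precursors, had -0.62 ± 1.2, and the more distant Tmem176a and Tmem176b had 0.04 ± 0.29 and 0.09 ± 0.32 (edgeR adjusted p of 0.728 to 0.949 for these and Ms4a4b).

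In WT without the libraries of number 2 the list gave 3 higher (Ms4a4a 3.81 ± 0.48, Ms4a8a 2.38 ± 0.53, Ms4a4d 3.58 ± 0.73) and 3 lower (Ms4a1 -2.55 ± 0.65, Ms4a14 -1.87 ± 0.42, Ms4a2 -2.29 ± 0.66). The background there was 16.9% higher and 19.3% lower. Ms4a7 had -0.95 ± 0.41 and was not called (edgeR adjusted p 0.0707). The family genes that rose beside the 4 were thus those called in KO too.

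Genes around the Ms4a proteins were followed by lists. Of 20 genes of the type I interferon response, 19 were called higher in KO and 19 in WT without the libraries of number 2. Their median log2 fold change in KO was 2.21, against -0.02 for all genes. The largest in KO were Cxcl10, a chemokine (3.74 ± 0.82), Zbp1, a nucleic acid sensor (3.41 ± 0.47), Oasl1 (3.25 ± 0.43) and Ifi204 (3.17 ± 0.51). In WT without the libraries of number 2 these were 4.92 ± 0.73, 2.89 ± 0.22, 2.85 ± 0.29 and 3.02 ± 0.26. Of 7 receptor and kinase genes of interferon signalling, Ifnar1, a chain of the type I receptor, was called higher in KO (0.57 ± 0.19, edgeR adjusted p 0.0322) and 0 were lower. That is 1 of 7, near the 10.3% of all genes. With number 2 left out, Ifnar1 (0.61 ± 0.17) and Ifngr2 (0.29 ± 0.09) were called in KO, and Ifngr2 (0.3 ± 0.09) and, lower, Jak1 (-0.3 ± 0.1) in WT. Ifngr2 and Jak1 are named after their values were seen. The background was then 13.6% higher and 15.6% lower in KO, and 16.9% and 19.3% in WT.

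Of 12 genes of TREM2 signalling, 1 was called higher and 2 lower in KO, shares near those of all genes (10.3% and 12%). Trem2 fell by 1.48 ± 0.34 on the log2 scale (edgeR adjusted p 0.00279) and Cd33, an inhibitory receptor, by 0.67 ± 0.24 (0.0454). Ptpn6, a phosphatase that damps such receptors, rose by 0.63 ± 0.17 (0.00832). With number 2 left out, Trem2 was at -1.55 ± 0.25 in KO and -1.42 ± 0.24 in WT, and Ptpn6 at 0.75 ± 0.1 and 0.58 ± 0.1, all called. Cd33, at -0.61 ± 0.29 and -0.62 ± 0.29, was called in neither. Adam10, a protease that sheds TREM2, was called in both (0.37 ± 0.13 and 0.5 ± 0.13). Adam17, a protease with the same activity (0.13 ± 0.12 in KO, 0.38 ± 0.12 in WT), and Apoe (-0.51 ± 0.2 and -1.2 ± 0.2) were called in WT and not in KO. The interaction, which compares the LPS response between genotypes, was not called for any gene. Adam10, Adam17 and Apoe are named after their values were seen.

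Of 9 genes of MHC class II and of the NLRP3 pathway that have been tied to Ms4a6d, 1 was called higher and 3 lower in KO, against 10.3% and 12% of all genes. Il1b rose by 2.77 ± 0.6 (edgeR adjusted p 0.00174). The MHC class II genes H2-Eb1, H2-Aa and H2-Ab1 had -3.89 ± 0.8, -3.77 ± 0.83 and -3.1 ± 0.69 (edgeR adjusted p 0.00114 to 0.00202). With number 2 left out, Il1b had 2.51 ± 0.72 in KO and 3.41 ± 0.78 in WT, H2-Eb1 -3.68 ± 0.25 and -3.45 ± 0.25, H2-Aa -3.69 ± 0.41 and -2.91 ± 0.4, and H2-Ab1 -2.86 ± 0.22 and -3.02 ± 0.22, all called. Cd74, the invariant chain of MHC class II, was then called in both (-0.67 ± 0.25 and -1.44 ± 0.25). Nlrp3 was at 0.49 ± 0.22 in KO, not called (edgeR adjusted p 0.103), and at 0.92 ± 0.22 in WT, called. Cd74 and Nlrp3 are named after their values were seen. These lists and the 4 genes were chosen with earlier results known, so the counts are descriptions.

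**Figure D5:**
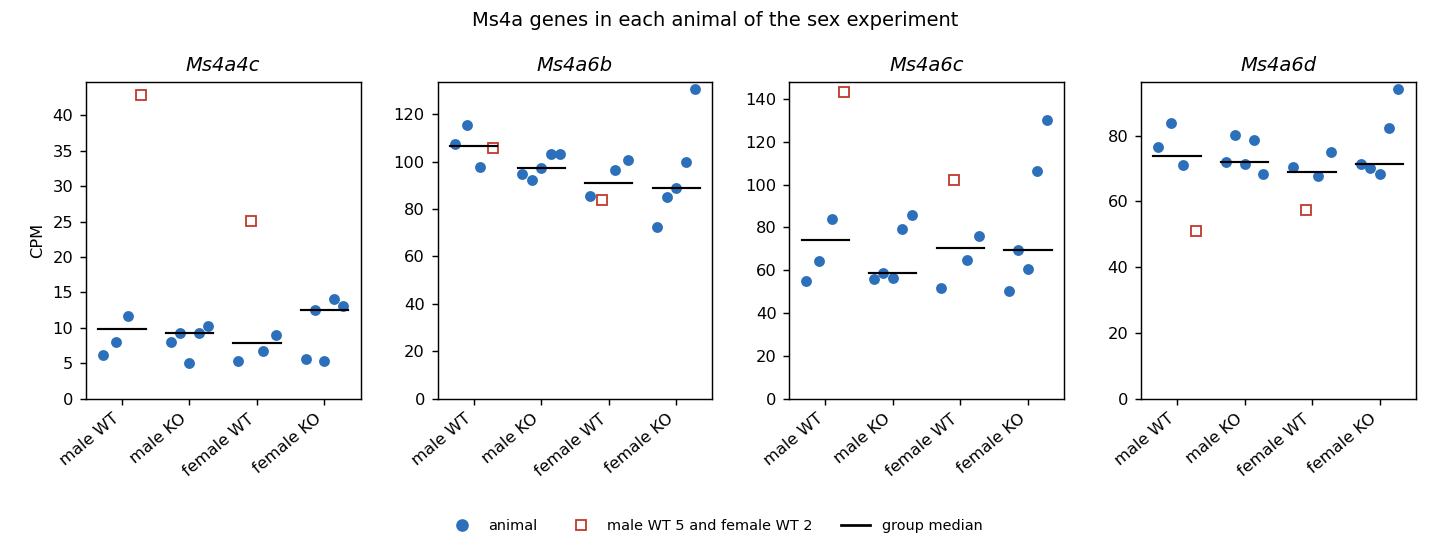
CPM of the 4 genes in each animal of the sex experiment, by sex and genotype, with group medians as black lines; red squares are male WT 5 and female WT 2. Those 2 animals are the highest for Ms4a4c (42.8 and 25.1 CPM) and the lowest of their groups for Ms4a6d (50.9 and 57.3 CPM).

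In the sex experiment none of the 4 genes passed the test for genotype. Ms4a4c was at 6.18, 8.01, 11.6 and 42.8 CPM in male WT and at 7.96, 9.27, 5.05, 9.2 and 10.3 in male KO. In females it was at 5.36, 25.1, 6.78 and 8.92 CPM in WT and at 5.57, 12.6, 5.24, 14 and 13.1 in KO. Male WT 5 and female WT 2 were the highest of all 18 animals. The log2 fold change of KO against WT was -1.04 ± 0.58 in males and -0.19 ± 0.58 in females. Without those 2 animals it was -0.04 ± 0.37 and 0.53 ± 0.37.

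The same 2 animals stood apart in markers of other cells. The 10 neutrophil markers summed to 51960 CPM in male WT 5 and 31350 in female WT 2, and to 789.4 to 8351 in the other 16 animals. The 10 monocyte markers summed to 5422 and 3163 CPM, against 180.5 to 987.9. The 11 microglial markers in the table summed to 27400 and 27890 CPM there and to 32490 to 45480 in the others. None of these markers was at 0 in any animal. Their part in the level of Ms4a4c was not tested.

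Ms4a6c was at 55.2, 64.5, 83.9 and 143.4 CPM in male WT and at 56, 58.5, 56.6, 79.2 and 85.9 in male KO, again highest in male WT 5. In females Ms4a6c was at 51.6, 102.3, 64.8 and 75.8 CPM in WT and at 50.5, 69.5, 60.4, 106.3 and 130.1 in KO. KO minus WT was -0.37 ± 0.32 in males and 0.18 ± 0.32 in females, and the groups overlapped in both. Ms4a6b was at 97.8 to 115.6 CPM in male WT, 92.1 to 103.1 in male KO, 83.7 to 100.7 in female WT and 72.6 to 130.7 in female KO, with -0.12 ± 0.12 in males and 0.06 ± 0.12 in females. Ms4a6d was at 50.9 to 84 CPM in male WT, 68.2 to 80.3 in male KO, 57.3 to 75.2 in female WT and 68.4 to 94.2 in female KO, with 0.07 ± 0.12 and 0.19 ± 0.12. In Ms4a6d male WT 5 and female WT 2 had the lowest levels of their groups.

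By edgeR 0 of the 4 genes were called in males (0.00946% of all genes called), in females (0.164%) and averaged over the sexes (0.432%). Nor was any called in the sex-by-genotype interaction (0%, with 879 genes at an unadjusted p under 0.05) or between female and male WT (0.0725%). In each of these 5 contrasts 0 of 4 had an unadjusted p under 0.05 and DESeq2 called 0. The averaged differences were -0.62 ± 0.41 for Ms4a4c, -0.03 ± 0.08 for Ms4a6b, -0.09 ± 0.23 for Ms4a6c and 0.13 ± 0.09 for Ms4a6d. Of the 18 other family genes tested there, 0 were called by genotype. Of the 20 interferon response genes 1 was called higher averaged over the sexes, Bst2 (0.39 ± 0.08, edgeR adjusted p 0.0387), named after its value was seen. The lists of TREM2 signalling, interferon receptors and MHC class II had 0 calls in that contrast.

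Genes of like pattern were sought by the Pearson correlation of log2 CPM after subtracting group means. Over the 18 animals of the sex experiment, Ms4a4c was closest to Stk24 (r 0.976), Actr3-ps (0.967) and Ifi211 (0.966), and Ms4a6c to Ifi203 (0.974), Hip1 (0.966) and Pla2g7 (0.966). Ifi211 and Ifi203 are interferon-inducible genes of the Ifi200 family. Ms4a6b was closest to Tle4 (0.911), Nrip2 (0.877) and F730043M19Rik (0.877), and Ms4a6d to Hsd17b12 (0.911), Selenop (0.891) and Scamp4 (0.89). Between the 4 themselves, r was 0.874 for Ms4a4c and Ms4a6c, 0.543 for Ms4a6b and Ms4a6d, and -0.461 for Ms4a4c and Ms4a6d. These points share library and depth, and male WT 5 and female WT 2 lie far out for Ms4a4c. The same animals were also the highest of their groups for Ms4a6c (143.4 and 102.3 CPM). No r without these animals was computed.

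Over the 16 KO libraries of the LPS experiment, the closest genes were Ifitm3 (r 0.985), Lyz2 and Fabp5 for Ms4a4c, Creb3 (0.982), Zfp825 and Osbpl9 for Ms4a6b, Zfp386 (0.947), Mpp1 and Ifi204 for Ms4a6c, and B2m (0.994), Atp6v1e1 and Cd302 for Ms4a6d. Ifitm3 restricts virus entry and B2m is the light chain of MHC class I. Ms4a6b and Ms4a6d correlated at 0.975 there, and Ms4a6b and Ms4a6c at 0.92. KO ns 6 and KO LPS 5 weigh on these values: over the other 14 libraries r was 0.932 for Ms4a6b and Ms4a6d and 0.813 for Ms4a6b and Ms4a6c, and it dropped from 0.689 to 0.05 for Ms4a4c and Ms4a6b. Over those 14, Ifitm3 (0.965) was still the closest to Ms4a4c and B2m (0.968) to Ms4a6d. The closest gene changed for the other members. For Ms4a6b it was Adam22 (0.948), followed by Ms4a6d and then Creb3 (0.927). For Ms4a6c, Spp1 (0.95), Clec4a1 (0.925) and Pla2g7 (0.91) took the places of Zfp386, Mpp1 and Ifi204.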

How the data were processed

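Poly(A) RNA of CD11b-positive brain cells had been sequenced on a NovaSeq, per the labels' protocols. The authors deposited read counts per gene in 2 tables, unnormalized as the values show. The submitters' processing notes name FastQC, STAR 2.6.1, featureCounts, Subread, DESeq2 and the build GRCm39. How multiply mapped reads and strand were handled is not given in the sources used here. Of 57 libraries listed, 6 repeat libraries of the sex experiment had no column and were not analysed here, and 0 columns were left without a sample.

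Each table was fitted whole with edgeR 4.0.16 in R 4.3.3 (with limma 3.58.1): genes kept by filterByExpr, TMM scaling, robust quasi-likelihood test, Benjamini-Hochberg adjusted p under 0.05 as a call. The LPS fit held all 4 groups as labelled and the library set as covariate. Biological variation between samples (edgeR BCV) came to 35.3% for the first table and 46.1% for the second. Log2 CPM used a prior count of 2. The SE of a log2 fold change is not an output of the edgeR test. It was derived as the absolute log2 fold change over the square root of the test's F statistic, and is approximate. The procedure was tested on simulated data. Those data had the same spread for every gene and no libraries that go against their labels. The simulation thus does not bear on these features of the LPS experiment. DESeq2 1.42.0 and other scalings, filters and sample sets were alternatives. The sets without high mitochondrial share (over 5%) and without male WT 5 and female WT 2 were chosen after seeing the data.

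The members and lists were chosen with earlier results of these data known. Named were the 4 genes, the other family genes tested, of each other list up to 4 called by LPS in KO or by genotype averaged over sexes, with the largest change, and the 3 genes of most like pattern per member. P2ry12 and Saa3 check the labels.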

Additional observations from a re-analysis of the deposited data

Results flagged for a closer look

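Single libraries stood far from the others of their group (by Dixon's criterion, which chance meets in about 1 in 20 groups). WT LPS 7 was far above the other WT LPS samples for all 4 genes, with 244.7 CPM of Ms4a4c, 3623 of Ms4a6b, 2522 of Ms4a6c and 5975 of Ms4a6d. KO LPS 5 was far above the other KO LPS libraries for all 4, with 106.7 CPM of Ms4a4c, 1195 of Ms4a6b, 1014 of Ms4a6c and 1626 of Ms4a6d. KO ns 6 was far above the other KO ns libraries for 3 of them, with 27.01 CPM of Ms4a4c, 404.5 of Ms4a6b and 495.4 of Ms4a6d. These 3 libraries had 6.74%, 5.62% and 8.55% mitochondrial counts, and their part in these levels was not tested. In the sex experiment male WT 5 was far above the other male WT animals for Ms4a4c, with 42.84 CPM.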

How the results depend on the processing

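The 4 calls of LPS in KO held under each setting run but 1: with library set 2 alone 0 of 4 were called. In WT, LPS gave 0 calls as labelled, 4 without library number 2, 4 also without high mitochondrial share, and 0 to 4 with single samples left out. DESeq2 called 1 of 4 for KO against WT at ns. With the replicate block 4 of 4 were called for LPS in KO and 0 in every other contrast, so it changed no call. The shared numbers were not taken as pairs, since not every same-numbered pair had a correlation of deviations over 0.1. That rule is strict, and in both experiments same-numbered pairs had the higher mean r. In the sex experiment 6 of 8 did (mean r 0.286), against 9 of 32 other pairs (mean r -0.0649). In the LPS experiment 23 of 45 did (mean r 0.131), against 61 of 147 (mean r -0.0195).

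Directions turned as follows, none of them called, and the cause was not tested. Without male WT 5 and female WT 2, Ms4a6d was at -0.0562 in males, Ms4a4c at 0.529 in females and 0.243 averaged, and Ms4a6c at 0.184 averaged. Between female and male WT, Ms4a6d was at 0.012 with a filter at a mean of 5 CPM and 0.206 with the replicate block. For KO against WT at ns without library number 2, Ms4a6b was at 0.343 and Ms4a6d at 0.695, and at 0.0243 for Ms4a6d also without high mitochondrial share. The interaction without library number 2 was -0.668 for Ms4a4c, -1.38 for Ms4a6b, -0.733 for Ms4a6c and -1.96 for Ms4a6d, and also without high mitochondrial share -0.44 for Ms4a6b and -0.362 for Ms4a6d.

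With single samples left out, log2 fold changes spanned 0 in these cases. In males Ms4a6d ran from -0.0587 to 0.162. In females Ms4a4c ran from -0.431 to 0.527, Ms4a6b from -0.0809 to 0.139 and Ms4a6c from -0.0389 to 0.379. Averaged over sexes Ms4a6b ran from -0.101 to 0.00336 and Ms4a6c from -0.203 to 0.0829. The sex-by-genotype interaction of Ms4a4c ran from -0.148 to 1.57. Female minus male WT ran from -1.3 to 0.419 for Ms4a4c, -0.439 to 0.116 for Ms4a6c and -0.19 to 0.0311 for Ms4a6d. At LPS, KO minus WT ran from -0.757 to 0.0537 for Ms4a4c, -0.514 to 0.196 for Ms4a6c and -0.838 to 0.138 for Ms4a6d, highest without WT LPS 7. Counts limit Ms4a4d, Ms4a1 and Ms4a2 most.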
